A study of Bos taurus with 30 samples.

Results

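CXCL5 and the other genes that the study placed under the gene ontology term neutrophil chemotaxis were examined across all 30 libraries of bovine peripheral white blood cells (PWBCs), the leukocyte layer of centrifuged blood freed of red cells by lysis. These are 5 of the 27607 genes in the count table: CXCL5, CXCL8, CXCL2, pro-platelet basic protein (PPBP) and CCL1. The study drew them from genes that were more abundant in jugular blood processed at 24 h than at 1 h, so the 24 h and 1 h jugular libraries chose the members and their difference is given here as a description. Blood came from 5 crossbred Angus × Simmental heifers, all estrus-synchronized. It was drawn into EDTA tubes, kept cold, and processed after the stated delay. The groups are coccygeal (tail) vein at 1 h (n = 5 libraries), jugular (neck) vein at 1 h (n = 5), jugular vein at 3, 6 or 8 h (n = 15) and jugular vein at 24 h (n = 5). Each heifer gave 1 library to each group of 5, and these are named subjects A to E. The 15 libraries of the middle delays come from the same 5 heifers, 3 libraries each, but the heifer and the exact delay of a single library were not assigned here, so they are treated as one 3-8 h group and are not independent animals.

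Chemokines are small secreted proteins that attract leukocytes through G protein-coupled receptors. CXCL5, CXCL8 and CXCL2 belong to the CXC chemokines with a glutamate-leucine-arginine motif ahead of their paired cysteines, which act on the receptors CXCR1 and CXCR2 and are known for drawing neutrophils out of the blood. PPBP is a precursor stored in platelet granules, and its cleavage gives the neutrophil-attracting chemokine CXCL7. CCL1 is a CC chemokine, a ligand of CCR8 known mainly for attracting monocytes and T cells. In cattle the CXC members lie in one chemokine cluster, which in the RefSeq order runs CXCL8, CXCL5, PPBP, PF4 and CXCL2, with a further unnamed locus after CXCL8.

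Depth was alike among groups. Library totals ran from 12412619 to 19492274 counts, so that 3 counts correspond to between 0.154 and 0.242 CPM (counts relative to the library total), a limit that covers counting error alone. No pair of libraries of a group was as alike as sampling noise would make them. In the closest pair the median squared difference was 1.78 times that expected from sampling noise. Of the leukocyte markers that could be matched to identifiers, CD79A of B cells and CD4 of T cells were detected in every library. So were FCGR3A, NCF1 and PGLYRP1 from a list of neutrophil markers. Bulk libraries cannot tell fewer cells of a type from less RNA per cell.

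The levels of the 5 genes spanned nearly 3 orders of magnitude. Scaled to transcript length, PPBP averaged 611 FPKM (CPM per kilobase of transcript) over the 30 libraries. CXCL8 averaged 15.9, CXCL5 4.29, CCL1 2.03 and CXCL2 0.706 on the same scale. PPBP was thus 38.4 times as abundant as CXCL8 and 142 times as abundant as CXCL5, and its range (358 to 1030) did not overlap that of any other member. The ranges of CXCL8 (7.68 to 32.1) and CXCL5 (1.90 to 8.95) touched, although in each of the 4 groups the mean order was the same. CXCL5, CXCL8, PPBP and CCL1 were above 1 CPM in all 30 libraries. CXCL2 was above it in 7 of 30, which were 1 coccygeal, 3 jugular 3-8 h and 3 jugular 24 h libraries. The filter asked for more than 1 CPM in 5 or more libraries, so CXCL2 entered every comparison, that of 3-8 h with coccygeal blood included, through its 24 h libraries. The 5 genes all passed, as did 14018 genes in total.

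**Figure D1:**
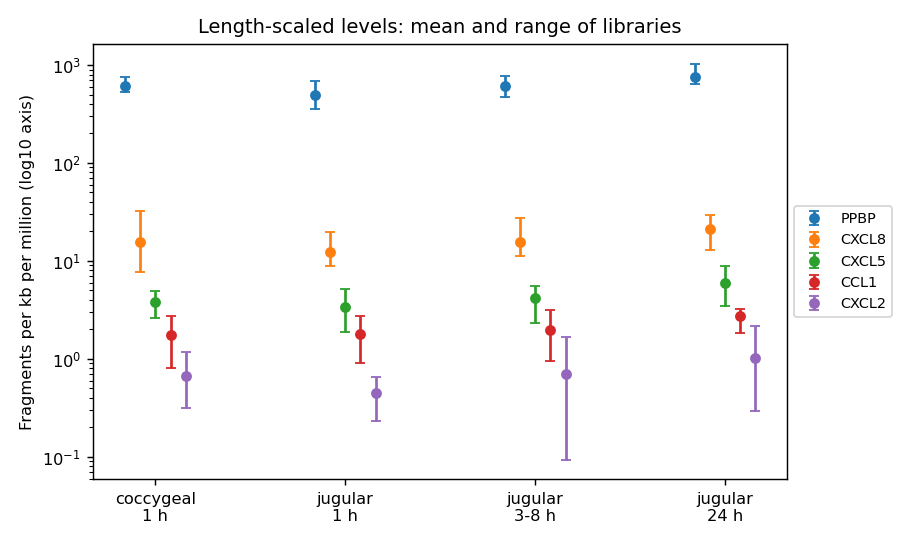
Length-scaled level of each gene (FPKM, log10 axis) by group; points are means and bars run from the lowest to the highest library (n = 5, 5, 15 and 5). PPBP stands far above the others, and the order PPBP, CXCL8, CXCL5, CCL1, CXCL2 holds for the means in every group.

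CXCL5, a chemokine of epithelium, platelets and activated leukocytes in other species, is annotated on ARS-UCD1.2 at chr6:88897012-88899124, forward strand (ENSBTAG00000009812). In coccygeal blood at 1 h it measured 6.25, 7.37, 3.90, 3.88 and 6.52 CPM in subjects A to E (mean 5.58 ± 1.60, SD, n = 5). In jugular blood at 1 h the same subjects gave 7.59, 2.82, 5.02, 3.19 and 6.20 CPM (4.97 ± 2.01, SD, n = 5). Subject B had the highest coccygeal and the lowest jugular value. The 3-8 h libraries ran from 3.48 to 8.18 CPM with a median of 6.16 (mean 6.25 ± 1.26, SD, n = 15). At 24 h the values were 13.3, 7.96, 9.22, 5.11 and 8.60 CPM (8.83 ± 2.94, SD, n = 5). Subject A was highest and subject D lowest at 24 h, 3 of the 5 libraries lay above every 3-8 h library, and the ranges of all groups overlapped. These levels rest on 52 to 218 counts per library.

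PPBP is annotated at chr6:88915320-88925227, forward strand (ENSBTAG00000011961), without a symbol in the deposited tables, and the name comes from its NCBI gene number. Its 9908 bp span in that annotation is long for a chemokine, and whether it takes in fragments of the neighbouring PF4 gene was not tested. In coccygeal blood subjects A to E measured 797, 899, 630, 659 and 627 CPM (723 ± 121, SD, n = 5). In jugular blood at 1 h they measured 818, 427, 567, 595 and 556 CPM (593 ± 142, SD, n = 5). Subject B again changed most between the veins, with its jugular library the lowest of all 30. The 3-8 h libraries ran from 565 to 925 CPM (median 713, mean 721 ± 97.9, SD, n = 15). At 24 h the values were 1229, 769, 918, 785 and 755 CPM (891 ± 200, SD, n = 5), and 1 of the 5 exceeded every 3-8 h library.

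CXCL8 encodes interleukin 8, the best known neutrophil attractant, and is annotated at chr6:88810418-88814572, forward strand (ENSBTAG00000019716). Coccygeal libraries of subjects A to E held 26.0, 60.1, 14.4, 24.3 and 20.0 CPM (28.9 ± 18.0, SD, n = 5), with subject B far above the others. Jugular libraries at 1 h held 36.8, 24.7, 17.7, 20.8 and 16.6 CPM (23.3 ± 8.19, SD, n = 5). The 3-8 h libraries ran from 21.0 to 50.9 CPM, with a median of 26.0 (28.9 ± 8.01, SD, n = 15). At 24 h they held 55.2, 55.1, 34.8, 23.9 and 28.2 CPM (39.4 ± 14.9, SD, n = 5). Subjects A and B were above every 3-8 h library and the other 3 lay inside that range.

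CXCL2, a close relative of CXCL5 that is induced in activated myeloid cells, is annotated at chr6:88946402-88948465, forward strand (ENSBTAG00000027513). It was the scarcest member, so counts are given: 6, 9, 19, 12 and 16 in coccygeal blood and 5, 7, 9, 9 and 9 in jugular blood at 1 h for subjects A to E. At 3-8 h it had 2 to 31 counts (median 11), and at 24 h 15, 6, 37, 16 and 13. The 24 h mean of 1.14 ± 0.764 CPM (SD, n = 5) took in 2.40 CPM in subject C and 0.330 CPM in subject B, the highest and lowest of the group. The 1 h jugular mean was 0.494 ± 0.182 CPM and the coccygeal mean 0.750 ± 0.370 CPM (SD, n = 5 each). The 3-8 h mean was 0.777 ± 0.512 CPM (SD, n = 15), the widest relative spread among members in that group (65.9% of the mean).

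CCL1 lies apart from the others, at chr19:15782652-15786668, forward strand (ENSBTAG00000008832). Subjects A to E held 1.22, 2.99, 4.17, 3.40 and 1.51 CPM in coccygeal blood and 1.74, 2.71, 4.11, 3.60 and 1.37 CPM in jugular blood at 1 h. The subjects kept their order of level closely: A and E were low and C and D high in both veins. The 3-8 h libraries ran from 1.45 to 4.81 CPM (median 3.11). At 24 h the values were 2.80, 4.89, 4.16, 4.92 and 3.79 CPM (4.11 ± 0.879, SD, n = 5), against 2.71 ± 1.17 CPM (SD, n = 5) at 1 h. Subject C was at the same level at both times, and the range of the 24 h libraries overlapped that of every other group.

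**Figure D2:**
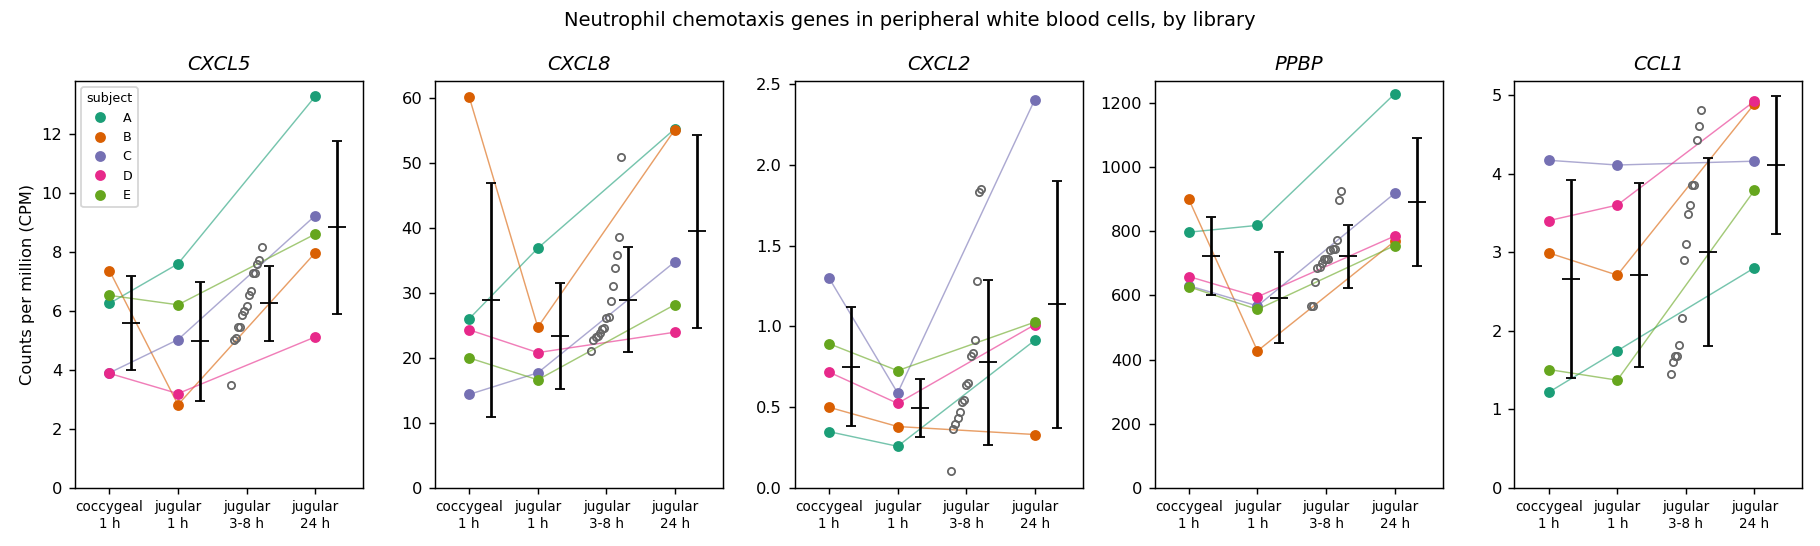
CPM of each gene by group; coloured points joined by lines are subjects A to E, open circles are the 15 jugular 3-8 h libraries in order of value, and black bars are the mean ± SD. In CXCL5 all 5 subjects are higher at 24 h than at 1 h in jugular blood, while the 3-8 h libraries (3.48 to 8.18 CPM) cover most of the 1 h values.

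Jugular blood at 3-8 h against coccygeal blood at 1 h is a comparison outside the contrast that chose the genes. None of the 5 genes passed. CXCL2 passed the filter only through its 24 h libraries, so its values here are a description. To count as different, a gene needed a log2 fold change beyond 0.5 in size and an FDR (p after Benjamini-Hochberg adjustment) below 0.05 by edgeR as well as by DESeq2. Over all 14018 genes tested, 0% met this, with 182 genes at an unadjusted p under 0.05 in edgeR and 0 genes called by either edgeR or DESeq2 alone. CXCL5 was 0.16 ± 0.17 (log2 fold change ± SE) higher at 3-8 h, with a 95% interval from -0.20 to 0.52 (edgeR, FDR = 1.00). PPBP differed by -0.0024 ± 0.10, interval -0.21 to 0.21. CXCL8 differed by -0.0012 ± 0.24 with an interval from -0.50 to 0.50, and CCL1 by 0.18 ± 0.31 with an interval from -0.47 to 0.83. CXCL2 gave 0.06 ± 0.43, and its interval from -0.84 to 0.95 admits changes of nearly 2-fold either way. For PPBP the interval lies inside the 0.5 limit in both directions, while it passes that limit upward for CXCL5 and CCL1 and in both directions for CXCL2. The interval of CXCL8 ends at the limit on both sides. The values moved with single libraries. CXCL5 ran from 0.05 without the coccygeal library of subject D to 0.28 without that of subject B. The sign turned for PPBP, CXCL8, CCL1 and CXCL2: without the coccygeal library of subject B, CXCL8 was 0.45 ± 0.20 higher at 3-8 h. Heifers were not entered as a block, because the heifer of a single 3-8 h library was not assigned here. The differences between animals stay in the error although each heifer gave libraries to both groups, which tends to widen the intervals. The 15 libraries of 5 heifers also count as independent, which by itself could narrow them. The 182 genes at an unadjusted p under 0.05 are a smaller share than the 0.05 expected with no difference. The absence of calls is thus weak evidence of no change. Whether the intervals, that of PPBP included, are too wide or too narrow was not tested.

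At 1 h, coccygeal and jugular blood of the same heifers were compared with heifer as a block. The jugular libraries had entered the choice of the members. None of the 5 genes passed, and 0% of the 14018 genes did (278 at an unadjusted p under 0.05 in edgeR, 0 called by edgeR or by DESeq2 alone). PPBP was 0.30 ± 0.17 higher in coccygeal blood on the log2 scale (interval -0.12 to 0.71, edgeR FDR = 1.00), higher in 4 of 5 subjects, and 0.11 ± 0.07 higher without subject B. CXCL5 was 0.21 ± 0.23 higher (interval -0.32 to 0.73), but in 3 of 5 subjects. The within-subject ratio of CXCL5 ran from 0.776 in subject C to 2.62 in subject B, and without subject B the log2 difference was -0.09. CXCL8 behaved likewise, with 0.21 ± 0.28, a ratio of 2.43 in subject B, and -0.09 without that subject. CXCL2 was higher in coccygeal blood in 5 of 5 subjects, with ratios from 1.23 to 2.21 on 5 to 19 counts, and a log2 difference of 0.57 ± 0.29 (interval -0.05 to 1.199). CCL1 differed by -0.05 ± 0.16.

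From 1 h to 24 h in jugular blood, the contrast that chose the genes, CXCL5 had a log2 fold change of 0.86 ± 0.15 (SE), with ratios within subjects of 1.39 to 2.83. CXCL2 had the largest value, 1.13 ± 0.34, with ratios from 0.870 in subject B to 4.09 in subject C. The value was 0.74 ± 0.12 for CXCL8 (ratios 1.15 to 2.23), 0.64 ± 0.19 for CCL1 (1.01 to 2.77) and 0.59 ± 0.07 for PPBP (1.32 to 1.80). CXCL5, CXCL8, PPBP and CCL1 were higher at 24 h in 5 of 5 subjects and CXCL2 in 4 of 5. In the fit used here 3 of the 5 genes met the rule for a change, CXCL5, CXCL8 and PPBP, beside 2.58% of all genes in either direction and 1.45% in this one, from which nothing is read because the contrast chose them. Of the genes that met the rule CXCL8 had the highest edgeR FDR (0.0094), and the genes outside it were at 0.058 (CXCL2) and 0.059 (CCL1). Without subject A, CXCL5 kept an edgeR FDR of 0.028 and DESeq2 gave no adjusted p for it. In that fit 2 of the 5 genes were counted, beside 161 of all 14018 genes. Without the heifer block, which pairs the libraries of an animal, 0 of the 5 genes met the rule, beside 30 of all 14018 genes. Nothing is read from these counts.

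The same 24 h libraries were set against coccygeal blood at 1 h, again with heifer as a block. Here 0 of the 5 genes met the rule in the direction of higher levels, beside 0.87% of all genes (1.85% in either direction). CXCL5 was 0.64 ± 0.18 higher, with an edgeR FDR of 0.072 and a DESeq2 adjusted p of 0.047. CXCL8 was 0.53 ± 0.21 higher (edgeR FDR = 0.20, DESeq2 adjusted p = 0.044) and PPBP 0.29 ± 0.11 higher (edgeR FDR = 0.18). CCL1 was 0.70 ± 0.21 higher (0.089) and CXCL2 0.54 ± 0.30 higher (0.34). CXCL5 was higher at 24 h in 5 of 5 subjects (ratios 1.08 to 2.37), PPBP, CCL1 and CXCL2 in 4 of 5 and CXCL8 in 3 of 5. Without subject B, a choice made after its values were seen, the log2 differences were 0.79 ± 0.18 for CXCL5, which then met the rule as 1 of the 5 genes beside 1.03% of all genes (2.36% in either direction), 0.71 ± 0.20 for CXCL8 and 0.42 ± 0.10 for PPBP. The 24 h libraries had chosen the genes, so these values are a description and no test of them.

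**Figure D3:**
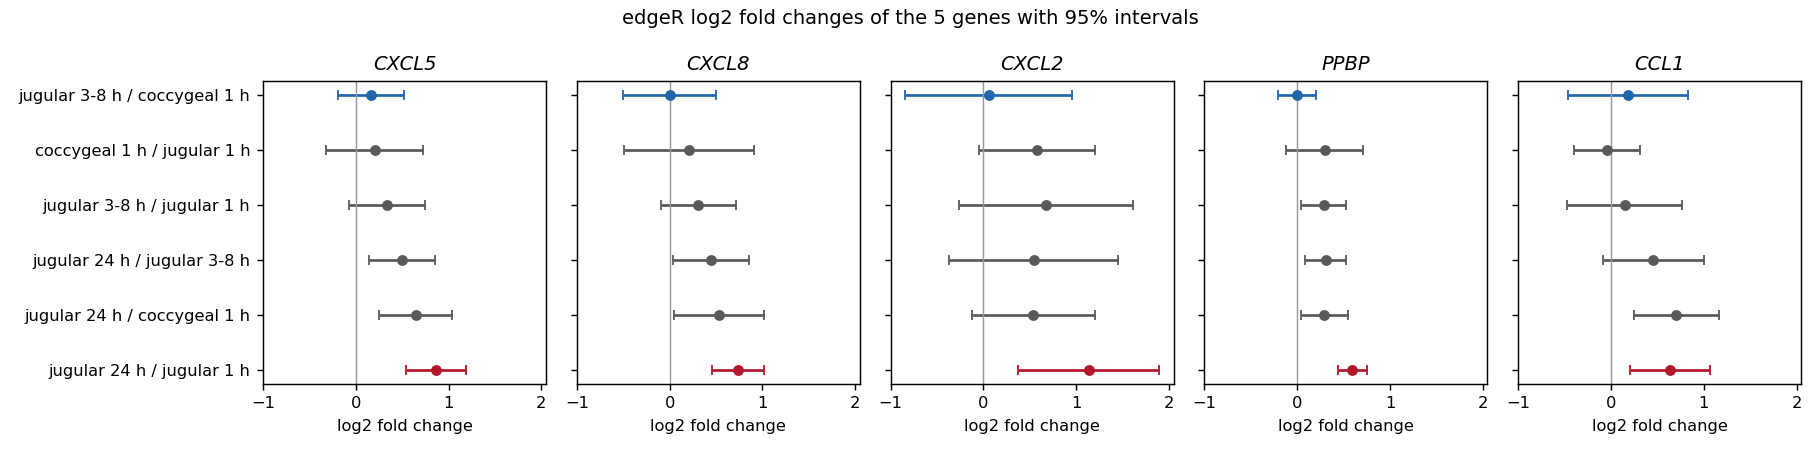
edgeR log2 fold changes with 95% intervals for the 5 genes in 6 comparisons. Blue is the comparison outside the contrast that chose the genes, and red the one that chose them. Grey marks the others, which share libraries with the choice. CXCL2 entered the blue comparison only through its 24 h libraries. The intervals of the 3-8 h against coccygeal comparison all include 0.

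The 3-8 h libraries were also set beside the 2 groups that chose the genes, as fold changes alone. Against jugular blood at 1 h the log2 values were 0.33 for CXCL5, 0.28 for PPBP, 0.31 for CXCL8, 0.67 for CXCL2 and 0.15 for CCL1. From 3-8 h to 24 h they were 0.50, 0.31, 0.45, 0.54 and 0.45 in the same order. Leaving out 1 of the 24 h libraries moved the second set to 0.30 for CXCL5 and 0.16 for PPBP (both without subject A), 0.30 for CXCL8 (without A or B) and 0.07 for CXCL2 (without C). Leaving out 1 of the 1 h libraries moved the first set to 0.18 for CXCL5 and 0.19 for PPBP without subject B, to 0.21 for CXCL5 without subject D, to 0.55 and 0.43 without subject A, and to 0.54 for CXCL8 without subject A. CCL1 ran from -0.01 without subject E to 0.34 without subject C, so that its direction turned. None of the 5 met the rule in either, where 0% and 0.2% of all genes did (0.143% higher and 0.0571% lower at 24 h). The 3-8 h mean thus lay between the 1 h and 24 h jugular means for each gene, and these 2 sets of values share the 3-8 h libraries. In the order of the 4 group means, 24 h was highest for all 5 genes, and jugular blood at 1 h was lowest for CXCL5, PPBP, CXCL8 and CXCL2. Coccygeal blood at 1 h was lowest for CCL1. Choosing genes for higher values at 24 h than at 1 h in jugular blood favours this order, with 3-8 h between. Nothing is read from it. The ranges of neighbouring groups in this order overlapped for every gene.

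Platelet-associated transcripts were measured beside these genes. Besides PPBP, 5 of the 17 other platelet markers on the list could be matched: SELP (P-selectin), VWF (von Willebrand factor), GNG11, P2RY1 and THBS1, and none was at 0 in any library. Summed, and carried mostly by GNG11, they ran from 509 to 1036 CPM in coccygeal blood, 499 to 742 CPM in jugular blood at 1 h, 536 to 826 CPM at 3-8 h and 678 to 1051 CPM at 24 h. Within subjects the sum at 24 h was 1.31 to 1.75 times that at 1 h. Between the veins it was 0.746, 2.07, 0.871, 1.04 and 1.23 times as high in coccygeal blood for subjects A to E, and the ratios of CXCL5 in the same subjects were 0.823, 2.62, 0.776, 1.21 and 1.05. Subject B thus had the highest ratio between veins for the platelet sum, CXCL5, CXCL8, PPBP and CCL1, at 1.105 for CCL1, and not for CXCL2, where it was 1.32. At 24 h GNG11 rose by 0.57 ± 0.07 on the log2 scale (edgeR FDR = 0.0025), while P2RY1 (0.17 ± 0.13) and THBS1 (0.09 ± 0.17) did not pass. SELP (0.63 ± 0.12) and VWF (0.68 ± 0.12) were chosen by the study on this contrast. Against coccygeal blood at 1 h, GNG11 was 0.42 higher at 24 h (edgeR FDR = 0.16) and did not pass. Divided by the platelet sum of its library, CXCL5 at 24 h was 1.06 to 1.61 times its 1 h value (above 1 in 5 of 5 subjects). The same ratio ran from 0.938 to 1.23 for PPBP, 0.819 to 1.49 for CXCL8 and 0.496 to 3.10 for CXCL2 (each above 1 in 4 of 5), and from 0.767 to 2.11 for CCL1 (3 of 5). These ratios use the contrast that chose the genes and SELP and VWF, and are a description. The part of platelet RNA in the levels of the 5 genes was not tested.

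**Figure D4:**
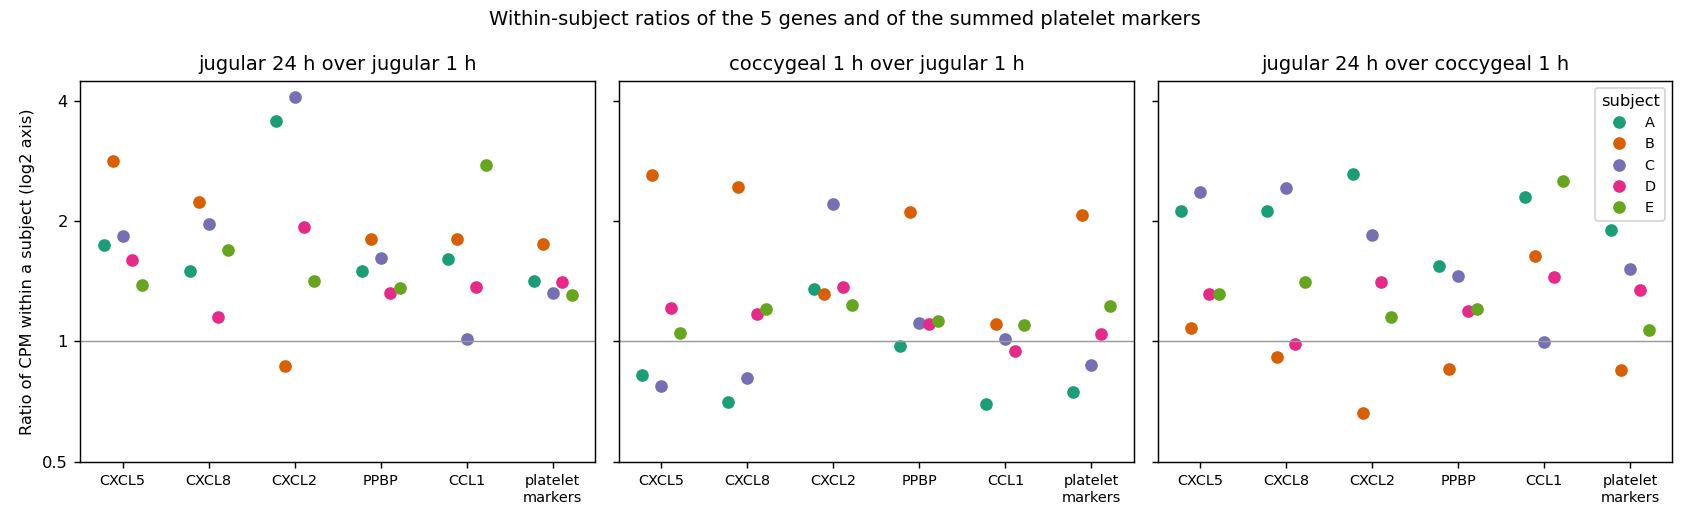
Ratio of CPM within each subject (log2 axis) for the 5 genes and for the sum of SELP, VWF, GNG11, P2RY1 and THBS1; 1 point per subject and a line at equality. Subject B (orange) has the highest coccygeal to jugular ratio of CXCL5, CXCL8, PPBP and the platelet markers, and its 24 h to coccygeal ratio of the platelet markers is 0.848.

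Of the 16 neutrophil markers listed, 3 could be matched, and their sum was 191 to 353 CPM in coccygeal blood, 224 to 402 CPM in jugular blood at 1 h, 196 to 567 CPM at 3-8 h and 209 to 305 CPM at 24 h, with overlap throughout. FCGR3A and NCF1 carried the sum, at means of 160 and 121 CPM in jugular blood at 1 h, against 1.08 CPM for PGLYRP1. Whether these transcripts came from neutrophils alone was not tested. FCGR3A, a receptor for immunoglobulin G, had a log2 difference of -0.02 ± 0.07 from 1 h to 24 h. NCF1, a subunit of the oxidase of phagocytes, had -0.26 ± 0.19, and PGLYRP1, a granule protein, had 0.05 ± 0.24. None of the 3 passed in any of the comparisons, where at most 2.58% of all genes did (from 1 h to 24 h). Monocyte markers (CX3CR1, CD14 and VCAN) summed to 504 to 644 CPM at 1 h and 351 to 600 CPM at 24 h in jugular blood, ranges that overlapped. T cell markers (CD2, CD4, CD8A, IL7R and CCR7) summed to 654 to 962 CPM at 1 h and 358 to 580 CPM at 24 h, without overlap. The eosinophil markers CCR3 and IL5RA summed to 33.7 to 67.3 CPM and 32.0 to 68.3 CPM, and CD79A ran from 439 to 559 CPM and from 477 to 696 CPM. IL5RA was lower at 24 h than at 1 h in jugular blood, by a log2 difference of -0.56 (edgeR FDR = 0.023), and CCR3 differed by 0.16 ± 0.07 and did not pass. Against coccygeal blood IL5RA was at -0.35 (edgeR FDR = 0.14) and did not pass. No marker of red cells could be matched to an identifier. CD14 and VCAN, and all T cell markers other than CD4, had been chosen by the study for lower values at 24 h. CD4, not chosen by the study, fell by 0.62 on the log2 scale (edgeR FDR = 0.015). Against coccygeal blood CD4 was at -0.75 (edgeR FDR = 0.062) and did not pass. The part of these cell types in the levels of the 5 genes was not tested.

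The genes most like CXCL5 across libraries were sought by Pearson's r in log2 CPM, as a description. Over the 30 libraries, which share heifers and delays, the highest r among 14017 genes were 0.92 and 0.89, for genes whose identifiers (ENSBTAG00000004472 and ENSBTAG00000011182) have no name in the sources used here, and the 5 highest all lacked one. SELP (r = 0.85, rank 12), VWF (0.84, rank 13) and F11R (0.81, rank 19), an adhesion molecule of junctions and platelets, were the nearest with a name. All 3 had been chosen by the study, like CXCL5, for a difference at 24 h. The other platelet markers had lower r, at 0.62 (GNG11, rank 186), 0.43 (THBS1, rank 1197) and 0.41 (P2RY1, rank 1419). Names were at hand for 1807 identifiers. PPBP stood at rank 44 (r = 0.77) and CXCL8 at rank 555 (0.52). CXCL2 (0.23) and CCL1 (-0.14) were further down. Over the 15 libraries of 3-8 h, which leave out the groups that chose the genes, the same 2 unnamed genes ranked 4 and 3 (r = 0.86 and 0.88). The nearest genes with a name there were TLE2 (0.83, rank 11) and SPATA25 (0.81, rank 13). SELP stood at rank 44 (0.76) and VWF at rank 126 (0.70), and the other platelet markers had r = 0.25 (GNG11), 0.14 (P2RY1) and 0.45 (THBS1). PPBP had 0.54 (rank 888) and CXCL8 0.04. CXCL2 and CXCL8 ran opposite in these 15 libraries (r = -0.63), CXCL2 on few counts. The 15 libraries come from 5 heifers, so each r over them can reflect differences between animals.

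**Figure D5:**
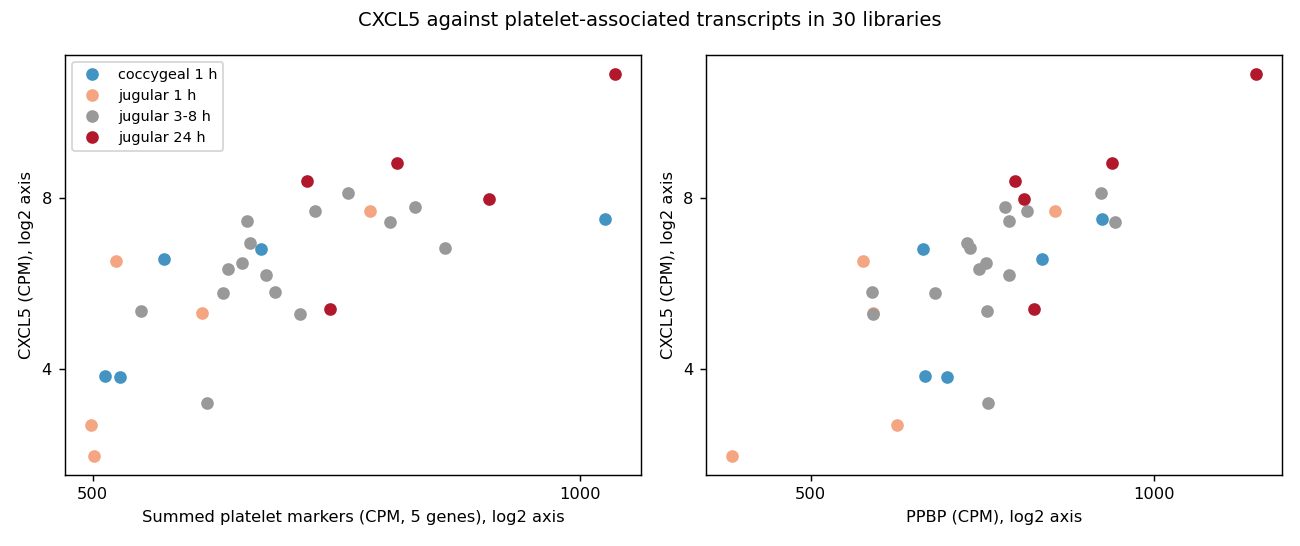
CXCL5 against the summed platelet markers (left) and against PPBP (right) in 30 libraries, CPM on log2 axes, coloured by group. The highest value of both is the 24 h library of subject A; r of CXCL5 with PPBP is 0.77 over 30 libraries and 0.54 over the 15 of 3-8 h.

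The other chemokine ligands, the receptors and the signalling genes were counted from lists. Their names came either from the part at hand of the study's table of all tested genes, called unselected here, or from genes the study had chosen for a difference. Among the unselected, the ligand CXCL10, an interferon-induced attractant of T cells, measured 9.47 ± 2.62 CPM at 1 h and 10.3 ± 2.82 CPM at 24 h in jugular blood (SD, n = 5 each; log2 difference 0.13 ± 0.11). The gene described as C-C motif chemokine 3 gave -0.45 ± 0.29, and neither passed in any comparison, where at most 2.58% of all genes did (from 1 h to 24 h). The receptors CXCR4, CX3CR1 and CCR3 gave 0 of 3 called in any comparison, beside the same share of at most 2.58% of all genes. CXCR4, which retains neutrophils in the bone marrow, was at -0.36 ± 0.10 from 1 h to 24 h, short of the limit on the fold change. Among receptors chosen by the study, CCR2 (-0.85 ± 0.09), CCR4 (-0.71 ± 0.12), CXCR6 (-0.59 ± 0.13) and CCR7 (-0.54 ± 0.08) were lower at 24 h than at 1 h, beside 1.13% of all genes, and were lower also against coccygeal blood, beside 0.977%. ACKR3 gave -0.57 ± 0.20 from 1 h to 24 h and did not pass in either. Of the 6 receptors chosen by the study, 0 passed at 3-8 h against coccygeal blood, and 1 was lower from 3-8 h to 24 h, beside 0.0571% of all genes. The study chose these receptors for a difference at 24 h, so nothing is read from the calls at 24 h. The receptors CXCR1 and CXCR2 of the CXCL5 family were not analysed here, because no source used paired them with an identifier.

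Inflammatory signalling genes were counted in the same way. Of 9 unselected genes (IL1B, TNFAIP3, IL18, IL18R1, CSF1, TLR5, MYD88, TICAM2 and TRAF1), 0 passed in any comparison, where at most 2.58% of all genes did (from 1 h to 24 h), and all 9 had negative log2 differences from 1 h to 24 h (median -0.24, against 0.01 over all genes). IL1B, the cytokine that induces CXC chemokines in many cells, held 18.1 to 179 CPM in jugular blood at 1 h, 2.91 to 421 CPM at 3-8 h and 21.5 to 63.1 CPM at 24 h, with a log2 difference of -0.33 ± 0.53 from 1 h to 24 h. The range at 3-8 h took in that of both other times. TNFAIP3, an inhibitor of NF-kappa B, was at -0.21 ± 0.07. The 3 genes of this list that the study had chosen (OSM, TLR4 and CD14) were lower at 24 h than at 1 h in 3 of 3, beside 1.13% of all genes. Nothing is read from this count, because the study chose these genes for a difference at 24 h. Against coccygeal blood 0 of 3 passed, beside 0.977%. Their log2 differences there were -0.83 for OSM (edgeR FDR = 0.075), -0.56 for TLR4 (0.071) and -0.50 for CD14 (0.054). Of 10 unselected genes of the migration machinery, 0 passed at 3-8 h or between the veins (0% of all genes in both) or from 1 h to 24 h (2.58%), and their median log2 difference at 24 h was -0.06. LGALS3 (galectin 3) alone passed against coccygeal blood, beside 1.85% of all genes, at -0.60 ± 0.14 (edgeR FDR = 0.049). F11R, chosen by the study, was at 0.55 ± 0.12 at 24 h.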

How the data were processed

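Per the labels and the study's methods, blood was drawn into EDTA tubes and held at cold temperature, PWBCs were taken from the buffy coat, RNA was extracted with TRIzol, and stranded, poly(A)-selected libraries were sequenced. The authors trimmed reads with cutadapt 2.8, aligned them to ARS-UCD1.2 with HISAT2 2.2.0, handled alignments with SAMtools 1.10, removed duplicates and counted fragments with featureCounts of Subread 2.0.1. The deposited table holds these raw counts per gene, 27607 genes by 30 libraries. Strand was not used in counting, so antisense and overlapping genes cannot be told apart.

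Genes above 1 CPM in 5 or more libraries (14018) were tested with edgeR 4.0.16 (quasi-likelihood, robust, library size as scaling) and DESeq2 1.42.0 (Wald) in R 4.3.3, with Benjamini-Hochberg adjustment over all of them. A call needed an adjusted p under 0.05 in both and an absolute log2 fold change above 0.5. Comparisons among the groups of 5 had heifer as a block, as each heifer gave a library to each group. Deviations of same-heifer libraries correlated at r = 0.44 to 0.82, against 0.14 at most for other pairs. CPM used the column total, and length scaling the annotated transcript length. The code was tested on simulated data. The 5 genes, the gene lists, the markers and the tests were chosen with earlier results of these data known. The genes named are the 5 members, the list genes with an identifier and the nearest genes to CXCL5. Other scalings, filters, tools and left-out libraries were tried as alternatives. A gene of the lists is not reported here.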

Additional observations from a re-analysis of the deposited data

Results flagged for a closer look

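Of 30 groups of 5 libraries examined for the 5 genes and the platelet markers, 2 held a library far from the others, and chance gives about 1 in 20 such groups. CXCL8 in coccygeal blood at 1 h was 60.1 CPM in subject B, with a gap to the next library of 0.746 of the whole range (critical value 0.71). VWF in jugular blood at 24 h was 183 CPM in subject A, with a gap of 0.752 of the range.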

How the results depend on the processing

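Pairing by heifer carried the 24 h against 1 h comparison: with the replicate block 361 genes were called, and without it 30, among them 0 of the 5 genes. The cause was not tested. Leaving out each subject in turn gave 161 to 393 genes, with 161 without subject A and 237 without subject B. From 3-8 h to 24 h, 28 genes were called, 68 by DESeq2 alone, and 15 to 34 with 1 of the 24 h libraries left out (15 without subject A, 17 without subject D). Between the veins and at 3-8 h against coccygeal blood no alternative gave a call, with or without the replicate block where there was one.

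Some log2 differences near 0 changed sign with a left-out library. At 3-8 h against coccygeal blood the ranges were -0.00331 to 0.397 for CCL1, -0.0495 to 0.0889 for PPBP, -0.171 to 0.452 for CXCL8 and -0.126 to 0.330 for CXCL2. Between the veins they were -0.0996 to 0.0436 for CCL1, -0.0853 to 0.351 for CXCL5 and -0.0854 to 0.401 for CXCL8, and at 3-8 h against jugular blood at 1 h -0.0138 to 0.341 for CCL1. A filter of 1 CPM in 10 or more libraries left CXCL2 without a value. Depth limits CXCL2 most, with 2 to 37 counts.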
